A study of Rattus norvegicus with 4 samples.

Results

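The miR-26 family was described in 4 small RNA libraries of rat growth plate chondrocytes and of the matrix vesicles (MVs) that these cells shed into their matrix. The members were found by name, as all products numbered rno-miR-26, and the family was chosen by its measured percents and its MV to cell ratios in these same libraries. Of the 740 miRNA names in the table, 4 carried this number, the guide arms rno-miR-26a-5p and rno-miR-26b-5p and the passenger arms rno-miR-26a-3p and rno-miR-26b-3p. Because the choice used these ratios, they are given as a description and no test was made of them.

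The study cultured chondrocytes from the costochondral cartilage of male Sprague Dawley rats, keeping the resting zone (RC) apart from the growth zone (GC), which holds the more mature prehypertrophic and hypertrophic cells. RC-cells and GC-cells were confluent cultures with no treatment named in the labels, at passage 4, grown with ascorbic acid and with fetal bovine serum that had been spun, per the study's methods, to take out its exosomes. RC-MVs and GC-MVs were pelleted by ultracentrifugation from the trypsin digest of the cell layer of such cultures, with no step in the methods that parts vesicles from other particles of the pellet. Each of the 4 groups was 1 library with no replicate, which leaves every difference below without a replicate check. The cell libraries held 6517329 (RC) and 7414467 (GC) miRNA reads and the MV libraries 1108821 (RC) and 982543 (GC). All 4 miRNAs of the cartilage list were found in both cell libraries. RC-cells and GC-cells held 0.383% and 0.506% of miR-140-3p, 0.0710% and 0.0808% of miR-140-5p, 0.0627% and 0.0439% of miR-455-5p, and 0.00970% and 0.00577% of miR-455-3p. The 17 marker miRNAs of blood, endothelium, liver, muscle and neural tissue that were found in the table added up to 0.0299% and 0.0263% in RC-cells and GC-cells, and to 0.508% and 1.40% in RC-MVs and GC-MVs. No list here separates resting from growth zone cells, so the zone labels were taken as given.

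miRNAs guide Argonaute proteins to messenger RNAs that pair with the seed, bases 2 to 8 of the mature strand, and they lower the output of these messages. The miR-26 genes of mammals lie in introns of the CTD small phosphatase genes, whose products act with the retinoblastoma protein to slow the entry into the cell cycle. The guide miR-26a is known to repress Ezh2, the methyltransferase of histone H3 that silences developmental genes, and Smad1, a transducer of BMP signals in cartilage and bone.

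The sequences show how alike the members are. The mature strands below are those of RefSeq for build GRCr8, which held 660 of the 740 names and all 4 members, and the capitals mark the seed:
miR-26a-5p: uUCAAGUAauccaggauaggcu
miR-26b-5p: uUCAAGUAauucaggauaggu
miR-26a-3p: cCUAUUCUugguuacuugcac
miR-26b-3p: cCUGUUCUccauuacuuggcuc

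Counted from 1 at the 5′ end, the guides were the same over their leading 10 bases and at 19 of the 21 positions they share in length. The differences from miR-26a-5p to miR-26b-5p were C11U and C21U, and miR-26a-5p was 22 bases long against 21. No other miRNA name with a sequence had the seed of the guides, so that they form a seed group of 2. The passenger arms were less alike, with 14 of 21 positions the same and different seeds. In the hairpins, shown to place the arms, the capitals mark the mature strands:
Mir26a: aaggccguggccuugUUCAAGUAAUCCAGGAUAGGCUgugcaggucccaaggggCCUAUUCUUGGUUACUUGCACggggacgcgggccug
Mir26b: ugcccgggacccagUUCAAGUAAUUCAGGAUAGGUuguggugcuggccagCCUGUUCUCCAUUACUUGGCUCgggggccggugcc

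In build GRCr8 the hairpin of Mir26a lies at chr8:127633048-127633137 and that of Mir26b at chr9:83425709-83425793, both on the plus strand. By the same annotation, Mir26a falls within the bounds of Ctdspl and Mir26b within those of Ctdsp1. These positions are not in Rnor_6.0, the build to which the authors aligned the reads. Each member was counted at 1 annotated locus. Mouse and human have a further miR-26a gene in the gene for CTDSP2, and reads from such a copy would have the same mature sequence. How reads were assigned when they could match both guides within the aligner's tolerance is not given in the sources used here, which limits the precision of the split between the guides.

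Both guides took a smaller share of the miRNA reads in MVs than in the cells, in both zones. RC-cells held 59034 reads of miR-26a-5p and GC-cells 51712, whereas RC-MVs held 1021 and GC-MVs 1497. As a percent of the miRNA reads of the library, this was 0.906% for RC-cells (95% Wilson interval from 0.899% to 0.913%), 0.697% for GC-cells (0.691% to 0.703%), 0.0921% for RC-MVs (0.0866% to 0.0979%) and 0.152% for GC-MVs (0.145% to 0.160%). Both cell libraries were thus above both MV libraries, and no interval overlapped another. Intervals cover counting error only, and PCR copies of 1 molecule were counted as separate reads.

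miR-26b-5p followed the same order at a lower level. RC-cells held 5229 reads of it and GC-cells 4341, or 0.0802% (0.0781% to 0.0824%) and 0.0585% (0.0568% to 0.0603%). RC-MVs held 66 and GC-MVs 87, or 0.00595% (0.00468% to 0.00757%) and 0.00885% (0.00718% to 0.0109%). Its shares in the MV libraries had overlapping intervals, whereas those in the cell libraries were apart. The guides together made up 0.986% of miRNA reads in RC-cells, 0.756% in GC-cells, 0.161% in GC-MVs and 0.0980% in RC-MVs.

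By rank, miR-26a-5p was the 15th most abundant miRNA in RC-cells and the 16th in GC-cells, but the 51st in GC-MVs and the 70th in RC-MVs. Its neighbours in RC-cells were miR-100-5p (0.911%), whose interval overlapped that of miR-26a-5p, and miR-30a-5p (0.792%), whose interval did not. In GC-cells it stood below let-7g-5p (0.711%) and above miR-24-3p (0.670%), both outside its interval. In the MVs its neighbours could not be told from it by counting error, as miR-103-3p had 1022 reads and miR-770-3p 974 in RC-MVs, and miR-532-5p had 1499 and miR-378a-3p 1486 in GC-MVs.

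miR-26b-5p held rank 78 in RC-cells, 72 in GC-cells, 150 in GC-MVs and 182 in RC-MVs. Next to it stood miR-10a-5p (5273 reads) and miR-24-2-5p (5156) in RC-cells, and miR-25-3p (4406) and miR-434 (4087) in GC-cells. In RC-MVs they were miR-6329 (68) and miR-671 (66), and in GC-MVs miR-29b-3p (89) and miR-582-3p (85). The intervals of all these neighbours overlapped that of miR-26b-5p.

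**Figure D1:**
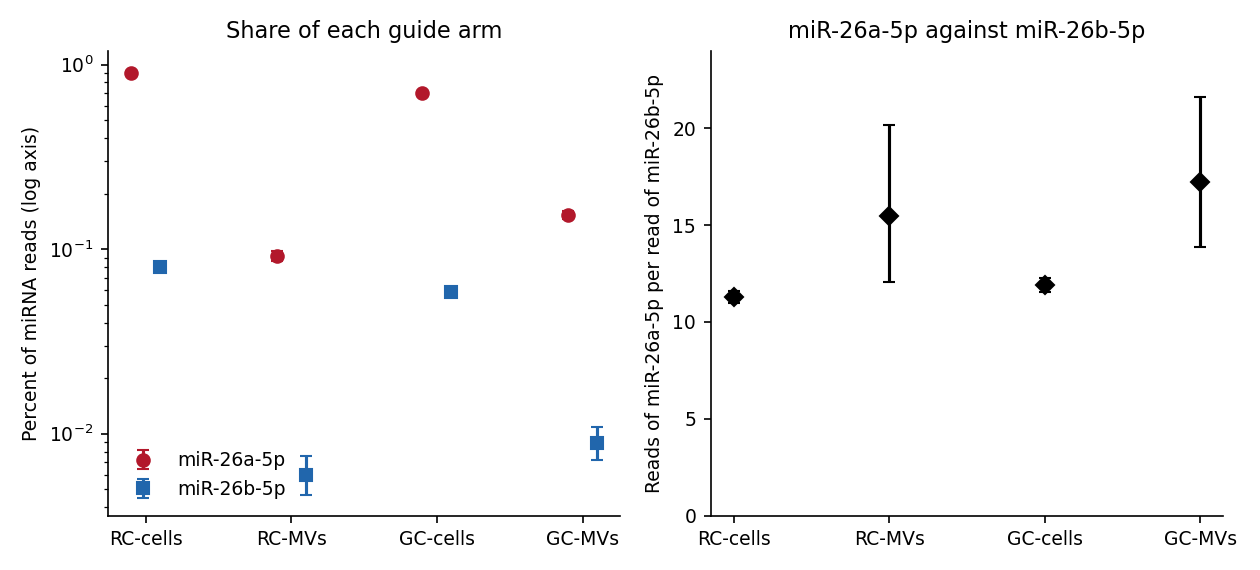
Left, percent of the miRNA reads of each library (log axis) for miR-26a-5p (circles) and miR-26b-5p (squares) with 95% Wilson intervals; right, reads of miR-26a-5p per read of miR-26b-5p with exact 95% intervals, for 1 library per group. Both guides are lower in the MV libraries, and the ratio between them is 11.3 and 11.9 in the cells and 15.5 and 17.2 in the MVs.

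To compare shares, the percent in MVs was divided by the percent in the cells of the same zone, with exact Clopper-Pearson intervals at the 95% level. From RC-cells to RC-MVs the share of miR-26a-5p fell 9.84-fold (9.25 to 10.5) and from GC-cells to GC-MVs 4.58-fold (4.35 to 4.82). The share of miR-26b-5p was 13.5-fold lower in RC-MVs (10.6 to 17.5) and 6.61-fold lower in GC-MVs (5.35 to 8.27). At the share of RC-cells, the RC-MV library would have held 10044 reads of miR-26a-5p in place of the 1021 found, and 889.6 reads of miR-26b-5p in place of 66. At the share of GC-cells, the GC-MV library would have held 6853 reads of miR-26a-5p in place of 1497, and 575 of miR-26b-5p in place of 87. A lower share can come from less miR-26 in the vesicles or from more of other miRNAs, and a percent does not separate these.

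Both guides were past 2-fold lower in both zones. Among all miRNAs found in both libraries of a zone, 30.4% of 414 were at least 2-fold lower in RC-MVs than in their cells, and 25.2% of 417 were so in GC-MVs against GC-cells. Over the 262 miRNAs that reached 10 reads in each of the 4 libraries, the ratio of miR-26b-5p was the 5th lowest for RC and the 7th lowest for GC. That of miR-26a-5p was the 8th lowest and the 15th lowest. On the log2 scale the ratios were -3.30 and -3.75 in the resting zone for miR-26a-5p and miR-26b-5p, beside a median of 0.13 over these miRNAs, and -2.19 and -2.73 in the growth zone beside a median of 0.18. miRNAs that fell below 10 reads in MVs are outside this set of 262.

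In a comparison chosen after seeing the data, the ratios were set beside those of miRNAs with a like level in the cells, which needs no minimum in the MVs. There were 18 other miRNAs within 2-fold of the share of miR-26a-5p in RC-cells, and none of them had a lower MV to cell ratio. Of these 18 miRNAs, 5 were at least 2-fold lower in RC-MVs, and their median ratio was 0.02 on the log2 scale. In the growth zone none of 22 such miRNAs had a lower ratio than miR-26a-5p, 6 were at least 2-fold lower in GC-MVs, and the median was -0.12. However, let-7g-5p could not be told from miR-26a-5p there by counting error. It was 4.57-fold lower in GC-MVs (4.34 to 4.81), beside 4.58-fold (4.35 to 4.82) for miR-26a-5p. For miR-26b-5p, 1 of 48 miRNAs of like level had a lower ratio for RC and 1 of 47 for GC. At least 2-fold lower in MVs were 21 of the 48 and 17 of the 47, with log2 medians of -0.52 and 0.05. This comparison uses the ratios by which the family was chosen.

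**Figure D2:**
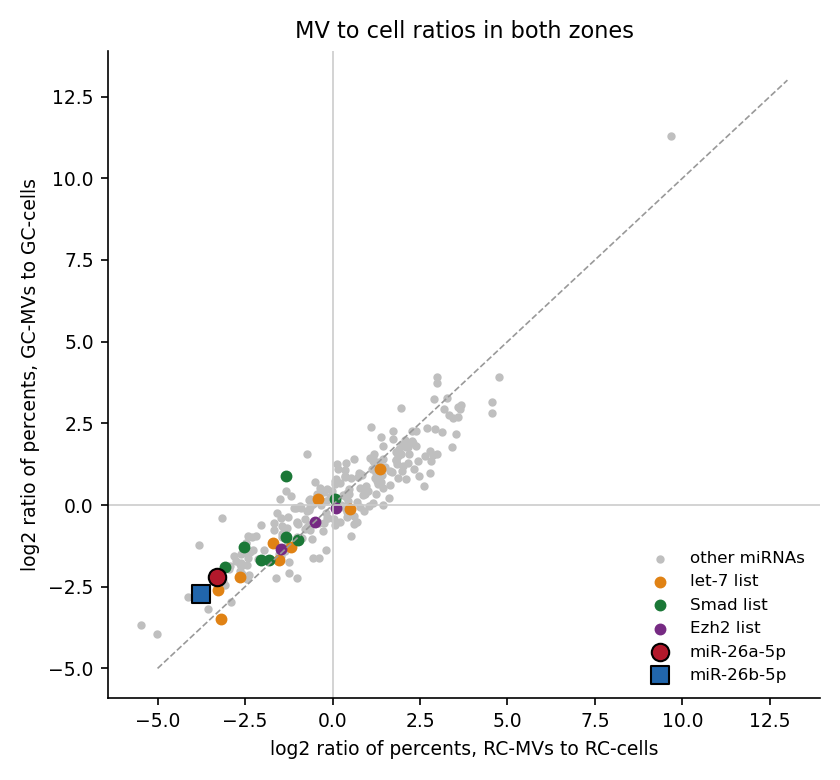
Log2 ratio of the percent in MVs to the percent in cells for 262 miRNAs that reached 10 reads in each of the 4 libraries, resting zone on the x-axis and growth zone on the y-axis, with the dashed line where both are equal. The guides of miR-26 lie at -3.30 and -3.75 on the x-axis and at -2.19 and -2.73 on the y-axis, above the line, with the guides of let-7 and miR-98 and the miRNAs known to repress Smads or Ezh2 drawn in colour.

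Within a library, the reads of miR-26a-5p could be divided by those of miR-26b-5p, a value that no scaling of the libraries changes. Per read of miR-26b-5p, RC-cells held 11.3 reads of miR-26a-5p (11.0 to 11.6) and GC-cells 11.9 (11.5 to 12.3), and RC-MVs held 15.5 (12.1 to 20.2) and GC-MVs 17.2 (13.9 to 21.6). The interval of each MV library thus lay above that of the cells of its zone. From cells to MVs this ratio was 1.37-fold higher in the resting zone (exact conditional interval from 1.07 to 1.79) and 1.44-fold higher in the growth zone (1.16 to 1.82). Between the zones it was close to 1, at 0.948 for RC-cells against GC-cells (0.909 to 0.989) and 0.899 for RC-MVs against GC-MVs (0.639 to 1.27). miR-26b-5p, the rarer guide, was therefore also the one with the larger fall from cells to MVs in both zones. The difference rests on 66 and 87 reads of miR-26b-5p in the MV libraries, and its spread over repeated vesicle preparations was not measured.

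miRNAs with a common seed often differed more than the miR-26 guides did. Among the 238 miRNAs with a sequence and at least 10 reads in all 4 libraries, there were 80 pairs with a shared seed, from 27 seeds. Of these, 36 pairs were among the guides of let-7 and miR-98. miRNAs without a sequence, such as miR-30b-5p and miR-99a-5p, are in no pair. The log2 MV to cell ratios of miR-26a-5p and miR-26b-5p differed by 0.45 for RC and by 0.53 for GC, the 16th and the 27th smallest difference of the 80 pairs. The median absolute difference over pairs was 1.17 and 0.97. Without the let-7 and miR-98 pairs, a split chosen after seeing the data, the medians over the other 44 pairs were 0.90 and 0.63, and the miR-26 pair was the 13th and the 21st smallest. The pairs share miRNAs and are not independent of each other.

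**Figure D3:**
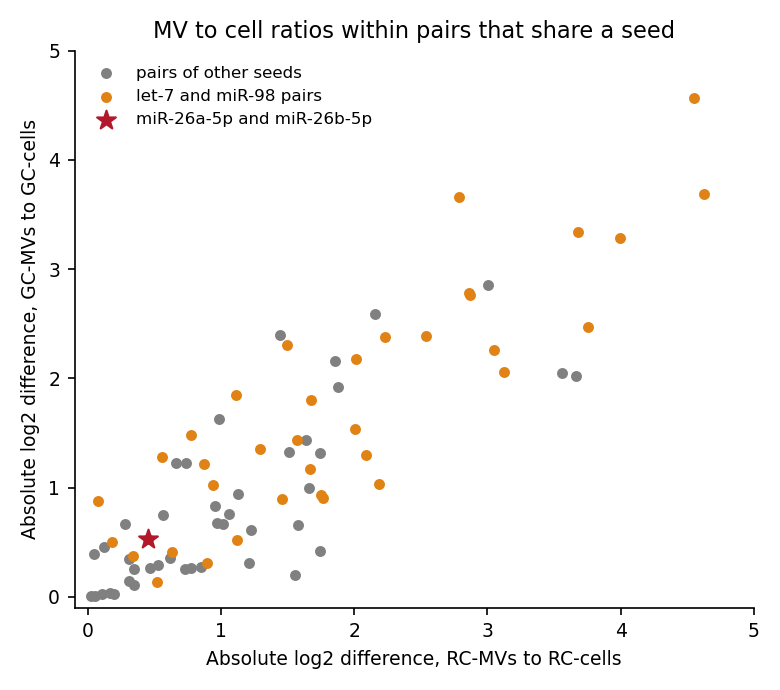
Absolute difference of the log2 MV to cell ratios within 80 pairs of miRNAs that share bases 2 to 8, resting zone on the x-axis and growth zone on the y-axis. The pairs are from the 238 miRNAs with a sequence and at least 10 reads in all 4 libraries. The miR-26 pair (star) lies at 0.45 and 0.53, and the largest differences are those of pairs among let-7 and miR-98.

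The fall of the guides from cells to MVs was steeper in the resting zone. The MV to cell ratio of miR-26a-5p was 2.15-fold higher in the growth zone than in the resting zone (exact conditional interval from 1.98 to 2.33), and that of miR-26b-5p was 2.04-fold higher (1.46 to 2.86). Over the 262 miRNAs, the log2 difference between the zones had a median of 0.00 with quartiles at -0.54 and 0.64, and 33 miRNAs were at least 2-fold higher in this sense in the growth zone, among them both guides, while 30 were at least 2-fold higher in the resting zone. The 2-fold call of the guides depended on the scaling. The values for miR-26a-5p and miR-26b-5p were 1.96 and 1.86 with TMM factors of edgeR, 1.99 and 1.89 with size factors of DESeq2, and 2.67 and 2.53 with totals that leave out 3 abundant miRNAs (miR-143-3p, miR-22-3p, miR-21-5p), alternatives chosen after seeing the data. The counts of 33 and 30 miRNAs became 24 and 36, 24 and 35, and 61 and 13 in the same order.

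Seen between the zones, the share of miR-26a-5p was 1.30-fold higher in RC-cells than in GC-cells (1.28 to 1.31), and that of miR-26b-5p was 1.37-fold higher (1.32 to 1.43). In the MVs the order was the opposite, as the share of miR-26a-5p in RC-MVs lay 1.65-fold below that in GC-MVs (1.53 to 1.79) and that of miR-26b-5p 1.49-fold below (1.07 to 2.08). As percents, neither guide was past 2-fold in either comparison, in which 19.4% of 474 miRNAs differed by at least 2-fold in either direction between the cells and 39.3% of 397 between the MVs. The same pattern, higher in RC-cells but lower in RC-MVs, was found for 62 of the 262 miRNAs as percents, and the reverse for 17. The size depended on the scaling in both comparisons, and the median miRNA itself was 0.24 higher in RC-cells on the log2 scale. With TMM factors, size factors or totals without those 3 miRNAs, miR-26a-5p was 1.03-fold, 1.01-fold or 1.04-fold higher in RC-cells and miR-26b-5p 1.09-fold, 1.07-fold or 1.10-fold. In RC-MVs, miR-26a-5p was 1.90-fold, 1.97-fold or 2.56-fold lower and miR-26b-5p 1.71-fold, 1.77-fold or 2.30-fold, so that both passed 2-fold with the last of these totals. Relative to the median of all miRNAs, which no scaling alters, miR-26a-5p was 0.14 higher and miR-26b-5p 0.22 higher in RC-cells, and 0.87 lower and 0.72 lower in RC-MVs.

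**Figure D4:**
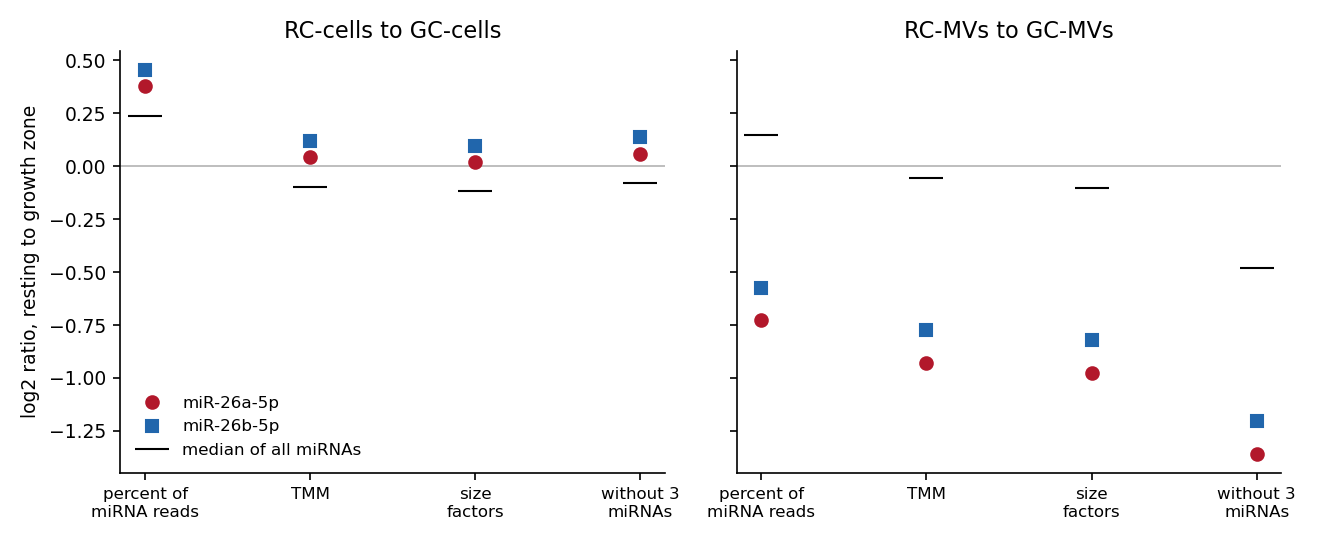
Log2 ratio of the resting to the growth zone for miR-26a-5p (circles) and miR-26b-5p (squares) between the cells (left) and between the MVs (right) under 4 scalings, with the median of all miRNAs that had reads in both libraries as a bar. The guides stay 0.14 and 0.22 above the median between the cells, and 0.87 and 0.72 below it between the MVs.

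The passenger arms, which are usually discarded when the guide is loaded, were near the limit of detection. RC-cells held 2 reads of miR-26a-3p and GC-cells 4, and either MV library held 0, which allows a share of up to 0.000271% for RC-MVs and 0.000305% for GC-MVs. At the share of the cells, 0.340 and 0.530 reads would have been found, so that its absence from MVs was not detectable at this depth. Of miR-26b-3p, RC-cells held 12 reads, GC-cells 19, RC-MVs 3 and GC-MVs 1. Its MV to cell ratio was 1.47 for RC (0.266 to 5.44) and 0.397 for GC (0.00956 to 2.50), and both intervals held 1.

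The gene with the rarer guide thus had the more frequent passenger arm. In RC-cells the 3p arm was 0.00339% of the reads of Mir26a and 0.229% of those of Mir26b, and in GC-cells 0.00773% and 0.436%. Over the 189 precursors with both arms annotated and at least 100 reads in RC-cells, the median share of the minor arm was 2.17%, and over 191 in GC-cells it was 2.16%. Mir26a had the 17th lowest share in RC-cells and the 13th lowest in GC-cells, and Mir26b the 40th and the 55th. Guide reads from a further copy of the miR-26a gene, if the rat has one, would have been counted to Mir26a. Its 3p shares and places may therefore not be those of 1 gene. In RC-MVs 3 of 69 reads of Mir26b, or 4.35% (1.49% to 12.0%), were from the 3p arm. In GC-MVs there was 1 such read beside 87 of the guide. These shares rise when the guide falls, and the fall of the guide was used to choose the family. The 3p arm itself had MV to cell ratios whose intervals held 1, so a change of arm cannot be read from these shares.

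The guides are poor in G and C. Base content was not itself used in the choice of members, but the MV to cell ratios were. These ratios rose with G and C across miRNAs, as given below, so base content is not independent of the choice. G and C made up 40.9% of miR-26a-5p and 33.3% of miR-26b-5p, the lower value following from C11U and C21U, while the median over the 660 names with a sequence was 47.8%. Only 4.39% of the names had less G and C than miR-26b-5p, and 20.6% had less than miR-26a-5p. Over 238 miRNAs with a sequence and at least 10 reads in all 4 libraries, G and C content and the log2 MV to cell ratio had a Spearman rho of 0.58 for RC and 0.51 for GC. These are descriptions across miRNAs, which share the libraries and their preparation.

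Below 40% G and C, 77.1% of 35 miRNAs were at least 2-fold lower in RC-MVs, and 68.6% in GC-MVs. From 40% to under 50% it was 34.9% and 23.3% of 86 miRNAs, from 50% to under 60% it was 14.8% and 8.64% of 81, and above that 0% and 5.56% of 36. In the range of G and C that holds miR-26a-5p, 2 of the 85 others had a lower ratio for RC and 2 for GC, a description that uses the ratios by which the family was chosen. For miR-26b-5p, 2 of the 34 others below 40% had a lower ratio for RC and 3 for GC. The part of base composition in the ratios of miR-26, in the vesicles or in the preparation of the libraries, was not tested.

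**Figure D5:**
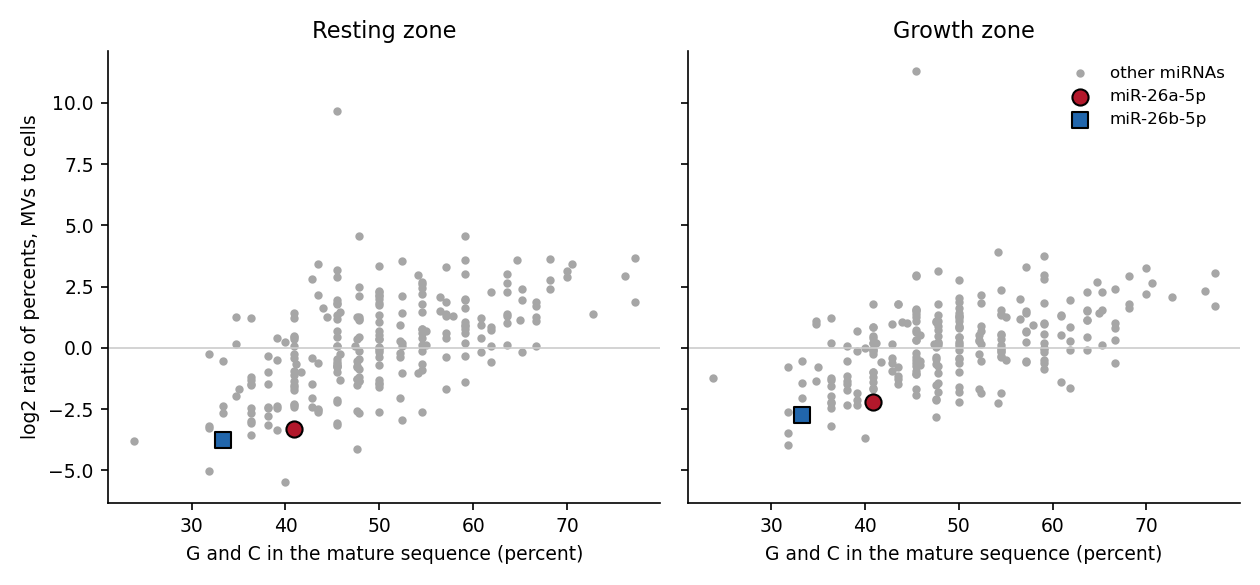
Percent of G and C in the mature sequence (x-axis) against the log2 MV to cell ratio (y-axis) for 238 miRNAs, resting zone on the left and growth zone on the right. miR-26b-5p at 33.3% and miR-26a-5p at 40.9% lie at the lower edge of miRNAs of like base content.

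Short motifs known from work on the export or retention of miRNAs were searched on the mature strand alone. The letters GGAG were found in 7.88% of the 660 mature sequences, CCCU in 9.70% and AGAAC in 2.58%, and none of the 4 members held any of them. This says only that these letters are absent from the mature strands.

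Profiles over the 4 libraries were compared by the Euclidean distance of log2 percents after each miRNA was centred on its own mean. Of the 261 other miRNAs that reached 10 reads in each of the 4 libraries, the 5 closest to miR-26a-5p were miR-872-5p (distance 0.25), miR-98-5p (0.29), miR-20a-5p (0.37), miR-27a-3p (0.38) and let-7c-2-3p (0.39). miR-26b-5p was the 8th closest, at 0.51, where the median miRNA was at 3.10. The 5 closest to miR-26b-5p were miR-98-5p (0.37), miR-26a-5p (0.51), miR-411-5p (0.53), miR-872-5p (0.53) and miR-20a-5p (0.62). The shares of miR-98-5p, a let-7 relative near both guides, were 9.64-fold lower in RC-MVs than in their cells and 6.06-fold lower in GC-MVs than in GC-cells. Likeness over 4 libraries says nothing on shared control.

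The other miRNAs known to repress Ezh2 were at least 2-fold lower in MVs at a share near that of all miRNAs. Of 6 on the list, 4 had reads in both resting zone libraries and 1 of them was at least 2-fold lower in RC-MVs, beside the 30.4% of all miRNAs, and 0 were at least 2-fold higher, beside 33.6%. Of the 5 with reads in both growth zone libraries, 1 was at least 2-fold lower in GC-MVs, beside 25.2% of all miRNAs, and 2 were at least 2-fold higher, beside 32.1%. These 2 were miR-138-5p, with 9 reads in GC-MVs and a ratio of 2.19 (0.917 to 4.71), and miR-217-5p, with 2 reads and a ratio of 7.55 (0.547 to 104.1), and both intervals held 1. The member at least 2-fold lower in both zones was miR-101b-3p, by 2.77-fold in the resting zone (2.51 to 3.06) and 2.53-fold in the growth zone (2.33 to 2.76). miR-101a-3p was 1.43-fold lower in each zone, and miR-214-3p, which is abundant in mesenchymal cells, stood at 1.06 and 0.943 times its share in the cells. The list medians were -0.18 and -0.09 on the log2 scale, beside 0.08 and 0.13 over all miRNAs with reads in both libraries.

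Of the 11 miRNAs known to repress Smads, 9 had reads in both libraries of a zone. There were 7 at least 2-fold lower in RC-MVs and 6 at least 2-fold lower in GC-MVs, where all miRNAs gave 30.4% and 25.2%, and none was 2-fold higher in either, where all miRNAs gave 33.6% and 32.1%. The list medians were -1.82 and -1.27 on the log2 scale. miR-140-5p, the 5p arm of the cartilage gene Mir140, was 8.37-fold lower in RC-MVs (6.83 to 10.4) and 3.75-fold lower in GC-MVs (3.27 to 4.32). The more abundant arm, miR-140-3p, which is not on this list, went the other way and was 2.48-fold higher in RC-MVs and 1.57-fold higher in GC-MVs. miR-199a-5p, known to repress Smad1 in chondrogenesis, was 4.16-fold and 3.23-fold lower, and miR-155-5p, with 5 reads in RC-MVs, was 27.7-fold lower (11.8 to 85.4) and 4.31-fold lower. miR-146a-5p, which targets Smad4, stood at 1.06 and 1.14 times its share in the cells. Of the miR-30 guides on this list, 30b-5p went apart by zone, 2.49-fold lower in RC-MVs and 1.84-fold higher in GC-MVs.

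The let-7 guides with miR-98-5p, whose members differ by few bases, were spread on both sides of their share in the cells. Of these 9 miRNAs, 6 were at least 2-fold lower in RC-MVs and 6 in GC-MVs, where all miRNAs gave 30.4% and 25.2%. In each, 1 was at least 2-fold higher, where all miRNAs gave 33.6% and 32.1%. The ratios ran from 0.104 (miR-98-5p) to 2.56 (let-7b-5p) in the resting zone and from 0.0899 (let-7f-5p) to 2.13 (let-7b-5p) in the growth zone. let-7f-5p was 9.15-fold and 11.1-fold lower, and let-7g-5p 6.22-fold and 4.57-fold lower, close to miR-26a-5p in both level and ratio in the growth zone. The lists were chosen with results of these data known, and their counts and medians are descriptions.

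Markers of blood and miR-122-5p, the 1 miRNA on the liver list, stood opposite to miR-26. All 7 blood miRNAs in the table that had reads in both resting zone libraries were at least 2-fold higher in RC-MVs, and all 6 with reads in both growth zone libraries were so in GC-MVs, where all miRNAs gave 33.6% and 32.1%. For miR-144-5p the resting zone ratio rested on 1 read in RC-cells and 2 in RC-MVs, with an interval that held 1 (0.612 to 694). The summed share of the blood miRNAs was 0.00126% and 0.00123% in RC-cells and GC-cells, and 0.0887% and 0.190% in the MVs of these zones. The liver miRNA miR-122-5p stood at 0.401% in RC-MVs and 1.14% in GC-MVs. miR-194-5p and miR-192-5p, also known from liver, were not on the list. Their log2 MV to cell ratios were -2.19 and -0.55 in the resting zone, and -0.93 and 0.04 in the growth zone. Of the endothelial pair, miR-126a-5p was 2.49-fold lower and miR-126a-3p 1.64-fold lower in RC-MVs, while in GC-MVs they stood at 1.15 and 2.97 times their share in the cells. The 4 muscle miRNAs were 2.87-fold to 70.4-fold higher in GC-MVs on 72 reads in all, and miR-206-3p, the member with reads in both resting zone libraries, was 3.92-fold higher in RC-MVs. Neural miR-9a-5p went the other way, 3.23-fold lower in RC-MVs and 2.52-fold lower in GC-MVs on 4 and 6 reads, and miR-124-3p had 0 reads in all 4 libraries. The part of other tissues in the ratios of miR-26 was not tested.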

How the data were processed

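Small RNA was sequenced on an Illumina HiSeq from 1 library each of both cell types and of the MVs of each. The authors aligned reads with Bowtie2 to Rnor_6.0 and tabulated miRNAs with miARma-Seq, and they deposited raw counts per annotated locus, whose totals were 982543 to 7414467 reads. How reads were trimmed, the versions of the tools and the handling of reads with more than 1 possible locus are not given in the sources used here. Counts of equal mature names were added, which turned 774 loci into 740 names, and were divided by all miRNA reads of the library, as in the study's own normalization. Precision follows from the reads of each miRNA, by Wilson intervals for shares, exact Clopper-Pearson intervals for ratios and exact conditional intervals for ratios of ratios, all at the 95% level. With 1 library per group there was no test and no p-value. A count of 0 allows up to 3 reads. The alternatives tried were TMM factors of edgeR, size factors of DESeq2, totals that leave out 3 abundant miRNAs, a pseudocount of 0.5, single loci, minimums of 10 and 100 reads and a 4-fold threshold. Intervals and calls were also tested on simulated data. The miRNAs named are the miR-26 products, the 5 nearest profiles of each guide, the neighbours in rank, and 3 comparison lists and tissue markers. Members and lists were chosen with earlier results of these data known. The array and RT-qPCR of the study were not used here. Mature sequences, hairpins and host genes came from RefSeq tables of build GRCr8. Python 3.11.15, numpy 2.4.6, pandas 2.3.3, scipy 1.17.1, matplotlib 3.10.9, R 4.3.3, edgeR 4.0.16 and DESeq2 1.42.0 were used.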

Additional observations from a re-analysis of the deposited data

How the results depend on the processing

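No paired analysis was made, because with 1 library per group a fit over both zones would have to take them as replicates of each other. Each MV library was compared with the cells of its own zone, with no test. Both guides stayed at least 2-fold lower in MVs than in cells of either zone under every scaling tried. For miR-26a-5p the fold lower in RC-MVs was 10.5 with edgeR's TMM normalization and 11.4 with totals that leave out miR-143-3p, miR-22-3p and miR-21-5p, in place of 9.84. In GC-MVs it was 5.35 with TMM, 5.07 with DESeq2's size factors and 4.27 with these totals, in place of 4.58. The values of miR-26b-5p in these comparisons stayed within their counting intervals. Between the cells, the fold higher in RC-cells moved to 1.03, 1.01 and 1.04 for miR-26a-5p and to 1.09, 1.07 and 1.10 for miR-26b-5p with TMM, size factors and totals without 3 miRNAs. Between the MVs, the fold lower in RC-MVs moved to 1.90, 1.97 and 2.56 for miR-26a-5p, and to 2.30 with totals without 3 miRNAs for miR-26b-5p, so that both passed 2-fold under that scaling alone. The ratio of the growth zone to the resting zone in MV to cell ratios moved from 2.15 to 1.96 with TMM and to 2.67 with totals without 3 miRNAs for miR-26a-5p. These shifts follow from the totals used.

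With at least 10 reads in both libraries, fewer miRNAs were compared. At least 2-fold lower were 83 of 293 (28.3%) in RC-MVs and 61 of 275 (22.2%) in GC-MVs, in place of 30.4% and 25.2%. At that minimum 50 of 379 (13.2%) differed by zone in the cells and 97 of 271 (35.8%) in the MVs. These stood in place of 92 of 474 (19.4%) and 156 of 397 (39.3%). With a 4-fold threshold and at least 1 read in both libraries, these counts were 71 (17.1%), 40 (9.59%), 20 (4.22%) and 32 (8.06%). Of the 5 profiles nearest to miR-26a-5p, 1 was kept when at least 100 reads in all 4 libraries were asked for, which left 131 miRNAs. The others fell below that minimum, so that their loss followed from the filter and not from their profiles. The one kept was miR-27a-3p, at the same distance of 0.38. The same alternative could not be run for miR-26b-5p, which had fewer than 100 reads in both MV libraries. The pseudocount and the single loci moved no ratio of the guides out of its counting interval. Depth limits the passenger arms and miR-26b-5p in MVs most.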
